A study of Mus musculus with 28 samples.

Results

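The spermatid transcription program was followed through 9 genes, of the 37100 genes that the deposited transcripts could be summed to, in sorted germ cells and whole testes of mice with and without Csmd1. They were named by their known roles: the activator Crem and its coactivator Fhl5, the general factors Tbpl1 and Gtf2a1l, the activators Mybl1, Sox30, Rfx2 and Rfx4, and the chromatin reader Brdt. All 9 genes passed the filter on low values. Crem was also read transcript by transcript, as were the transcripts of Rfx4, and 64 transcripts of the 9 genes were in the table.

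The 28 RNA-seq libraries came from 13 mice, labelled C57BL/6, that were either wildtype or Csmd1 knockout. In the knockout line, kept on a mixed 129SvEvBrd and C57BL/6 background, a lacZ and neo cassette replaces exon 1 and part of the first intron. Germ cells were stained with Hoechst and sorted by flow cytometry. The sort gave 4 libraries of spermatogonia (2 wildtype, 2 knockout), 6 of primary spermatocytes (2 wildtype, 4 knockout), 5 of secondary spermatocytes (2 wildtype, 3 knockout) and 5 of spermatids (3 wildtype, 2 knockout), from 8 mice. A further 7 libraries were whole testes (2 wildtype, 5 knockout), and 1 was a wildtype ovary. One testis of a mouse was kept whole and the other was sorted, so libraries of the same mouse are not independent and the mouse is the replicate. Males for sorting were 40 ± 1 days old by the study's methods. The study also sampled whole testes of sexually immature mice at 20 days, and the labels used here give no age for a library.

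Spermatids are haploid and compact their chromatin until transcription stops, so the messages of sperm structure are made in a short window and stored. Crem, a leucine zipper factor of the cAMP-responsive family, switches on many of these genes with its coactivator Fhl5 (ACT), a LIM-domain protein. Tbpl1 (TRF2) is a relative of the TATA-binding protein, and Gtf2a1l (ALF) is a germ-cell counterpart of the TFIIA large subunit. Mybl1 (A-MYB) is the activator of the pachytene spermatocyte, Rfx2 and Rfx4 are winged-helix factors of the RFX family, Rfx2 being known from ciliary and flagellar genes, Sox30 is an HMG-box factor of meiotic and postmeiotic germ cells, and Brdt is the testis-specific BET protein that reads acetylated histones.

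Promoter sequence of the members is shown first, because Mybl1 is itself a member and the motif that MYB proteins bind can be searched in the windows of the others. Other motifs were searched in the same windows, and their counts follow the printed sequences. RefSeq windows of the GRCm38.p6 assembly were at hand for 7 of the 9 members (9 windows), and Mybl1 and Crem had none in the table. The MYB motif CNGTTG, read on both strands as CNGTTG or CAACNG over the 250 bases before each start, occurred in 3 of the 9 member windows, in 0 of the 12 windows of 10 late spermatid genes, and in 29.3% of all 32851 windows. For 9 windows, 3 is near that share of all windows. Rfx2 held it 3 times, at 175, 151 and 118 bases before the start, where 0.989% of all windows held 3 or more. The match nearest to the start overlaps the motif GTTNCC. The second start of Rfx4, which is that of Rfx4-203, held 1 match at 40 bases, and Gtf2a1l held 1 at 41 bases. The 100 bases around these matches are printed 5′ to 3′ on the strand of the gene, with the matches in capitals, and Tbpl1 is given as a member without a match. They lie at chr17:56831109-56831208 (minus strand, Rfx2), chr10:84838048-84838147 (plus strand, Rfx4), chr17:88668560-88668659 (plus strand, Gtf2a1l) and chr10:22731448-22731547 (minus strand, Tbpl1).
Rfx2: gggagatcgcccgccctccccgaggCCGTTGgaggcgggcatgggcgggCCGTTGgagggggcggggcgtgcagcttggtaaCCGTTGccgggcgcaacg
Rfx4: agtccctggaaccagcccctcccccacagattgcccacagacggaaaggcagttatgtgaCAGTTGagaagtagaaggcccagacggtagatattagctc
Gtf2a1l: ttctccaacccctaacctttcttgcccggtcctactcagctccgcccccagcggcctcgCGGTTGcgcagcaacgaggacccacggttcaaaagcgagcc
Tbpl1: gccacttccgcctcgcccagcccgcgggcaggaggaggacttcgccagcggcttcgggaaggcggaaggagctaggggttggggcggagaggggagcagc
The full cAMP-responsive element TGACGTCA was in 0 of the member windows and in 0 of the late spermatid windows, against 1.55% of all windows. Its shorter form TGACG was in 1 and 1 (17.8% of all), and the TATA motif TATAAA in 0 and 1 (12.4%). The X-box motif GTTNCC was in 4 of 9 member and 4 of 12 late windows (39.4% of all). The SOX motif ACAAT was in 3 of 9 and 7 of 12 (27.7%), so it was more frequent in the late genes. These counts were not tested. A match is a description of the letters and not a binding site.

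Several libraries stood apart from their labels. The protamine gene Prm1, a marker of late spermatids, was at 2579, 1299 and 929.9 RPKM (reads scaled to transcript length and to the mapped reads of the library) in the spermatids of mice 178, 351 and 544, but at 0.579 and 2.14 RPKM in those of mice 648 and 286. The whole testes split in the same way, with Prm1 at 603, 1152 and 1922 RPKM in mice 178, 214 and 273 and at 0.439 to 1.16 RPKM in mice 648, 269, 286 and 308. The spermatogonia library of knockout mouse 544 held 1402 RPKM of Prm1, and the 11 late spermatid genes summed to 16233 RPKM there, the highest sum of any sorted library. Its 6 spermatogonial markers summed to 286 RPKM, the lowest of the 4 spermatogonia libraries, though above the 8.72 to 18.2 RPKM of the spermatid libraries. The primary spermatocyte library of mouse 613 lacked a value for 12787 transcripts, a set no other library shared, and was therefore taken as quantified apart. Its depth is unknown, while the other 27 libraries held an estimated 23786000 to 61633000 mapped reads. Csmd1 itself was at 0.033 to 1.66 RPKM in wildtype and 0.049 to 6.33 RPKM in knockout sorted libraries. The deletion takes exon 1 and part of the first intron, and a sum over whole transcripts does not check the genotype.

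Of the 9 members, 4 were called higher in primary spermatocytes than in spermatogonia: Gtf2a1l, Rfx4, Rfx2 and Mybl1. Summed over its transcripts, Rfx4 (chr10:84756062-84906538, plus strand) stood at 16.6, 3.92 and 16.4 RPKM in the spermatogonia of mice 178, 648 and 286 and at 131 RPKM in those of mouse 544. In primary spermatocytes it was at 116, 113, 113 and 114 RPKM in mice 178, 648, 544 and 550 and at 24.2 and 64.5 RPKM in mice 613 and 614. Apart from mouse 544, every spermatogonia library lay under every primary spermatocyte library. The difference was 2.17 ± 0.59 (SE) on the log2(RPKM + 0.1) scale on which all model differences are given (limma, adjusted p = 0.0118). Groups are averaged over genotype here. The knockout step minus the wildtype step was -3.28 ± 1.17 for Rfx4, -2.96 for Gtf2a1l, -1.79 for Rfx2, -1.32 for Mybl1 and -3.52 for Crem. None of these was called (limma, adjusted p of 0.506 or more). The unadjusted p in limma was 0.0123 for Rfx4, 0.0138 for Gtf2a1l and 0.0256 for Crem. The knockout spermatogonia were those of mice 286 and 544. In sorted bulk RNA fewer cells of a type and less RNA per cell cannot be told apart.

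Gtf2a1l (chr17:88668660-88715152, plus strand) went the same way, from 15.4, 8.73, 15.6 and 156 RPKM in the spermatogonia of mice 178, 648, 286 and 544 to between 43.7 and 151 RPKM in the 6 primary spermatocyte libraries, a difference of 2.08 ± 0.54 (limma, adjusted p = 0.0092). Rfx2 (chr17:56775897-56831013, minus strand) was at 47.7, 22.4, 26.2 and 218 RPKM in those spermatogonia and at 131 to 344 RPKM in primary spermatocytes (2.10 ± 0.58, limma, adjusted p = 0.0133). Mybl1 (chr1:9667415-9700209, minus strand) had 67.0, 18.2, 51.6 and 51.4 RPKM in spermatogonia and 144, 208, 133, 165, 62.8 and 77.8 RPKM in the primary spermatocytes of mice 178, 648, 544, 550, 613 and 614. Its groups overlapped only between the spermatogonia of mouse 178 and the primary spermatocytes of mouse 613, and its difference was 1.64 ± 0.58 (limma, adjusted p = 0.0460). For the other 3 called genes the overlap came from the spermatogonia of mouse 544.

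The 5 other members were not called at this step. Tbpl1 (chr10:22703879-22731938, minus strand) was at 45.6 to 102 RPKM in spermatogonia and 55.5 to 424 RPKM in primary spermatocytes, a difference of 1.30 (adjusted p = 0.116, limma). With libraries of a mouse treated as a random block it was called as well, at 1.35 (adjusted p = 0.0383). Brdt (chr5:107331159-107387058, plus strand) was already at 105 to 355 RPKM in spermatogonia. Brdt differed by 1.13, Sox30 by 0.90 and Crem by 1.01, none of them called. The difference of Fhl5 was -0.56, a sign set by the 544 spermatogonia library, without which it was 1.42 higher and still not called. Of all 22700 genes tested, 7.53% were called higher, and 11.6% under the block, against 4 and 5 of the 9 members. The calls over all genes were 1710 higher and 4331 lower, and 2956 higher and 2795 lower after quantile normalization, which moved the median of all genes from -0.31 to 0.09. Without mouse 286 or without mouse 648 no member was called (adjusted p of 0.0701 or more for these 4), and without mouse 178 only Rfx4 was. Without mouse 286 the difference was 1.26 for Gtf2a1l, 1.33 for Rfx2 and 1.42 for Rfx4. Mybl1 alone also lost its call without mouse 544, 550 or 614 and without the 544 spermatogonia library, with adjusted p up to 0.101 in these fits. Without that library the differences of Gtf2a1l, Rfx4 and Rfx2 were 2.91, 2.92 and 2.86, and without it and mouse 613, an alternative chosen after seeing the data, 6 members were called, with 16.3% of all genes called higher. The spermatogonia libraries also held Sertoli cell markers at a summed 368 to 658 RPKM over 6 genes, against 31.7 to 160 RPKM in primary spermatocytes, and stromal markers at 30.7 to 819 against a median of 5.58 RPKM. Markers of primary spermatocytes, also 6 genes, summed to 341 to 1953 RPKM in spermatogonia and 433 to 2370 RPKM in primary spermatocytes. The medians were 975 and 919 RPKM, and 1 of these 6 genes was called higher (limma). In mouse 178 the sum was 1953 RPKM in spermatogonia and 686 RPKM in primary spermatocytes. Mice 648 and 544 went the other way, from 687 and 341 RPKM to 2370 and 1343 RPKM. The spermatogonia libraries thus held primary spermatocyte messages too. The part of these lists in the differences was not tested.

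**Figure D1:**
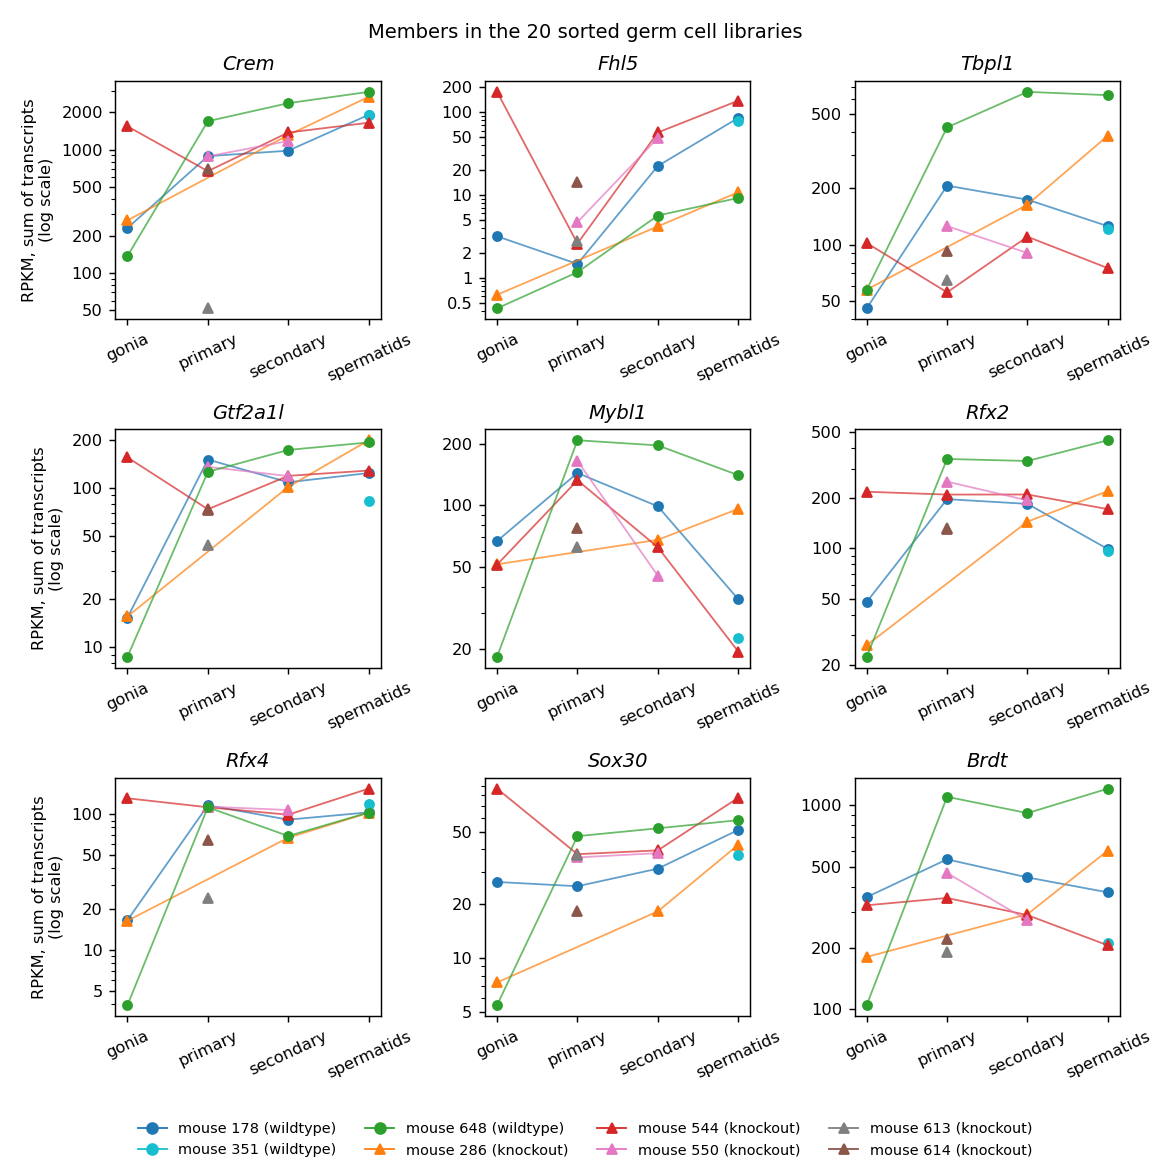
Summed RPKM (log axis) of each of the 9 genes in the 20 sorted libraries by stage, with 1 point per library, circles for wildtype and triangles for knockout mice, and lines joining the libraries of a mouse (mouse 286 has no primary spermatocytes). Fhl5 spans 0.426 to 176 RPKM, and Rfx4, Rfx2 and Gtf2a1l are lowest in the spermatogonia of mice 178, 648 and 286.

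The late spermatid genes themselves were not called at the first step in either direction (0 of 11 by limma, 0 at an unadjusted p under 0.05, median -0.00). Within the 3 mice that gave both stages (178, 648 and 544), every member but Fhl5 moved further upwards, or less far downwards, than the mean of the 11 late genes in 3 of 3 mice. For Rfx4 the lead over the late mean was 3.44 to 5.19 log2 units and for Brdt 2.02 to 5.53. The late mean moved by -5.41, -1.60 and 1.37 in mice 544, 178 and 648. The spermatogonia libraries of mice 544 and 178 themselves held late spermatid messages, at a summed 16233 and 749.5 RPKM against 15.6 and 13.1 RPKM in mice 648 and 286, and the lead in those mice is counted from these libraries. In plain terms, Mybl1 and Brdt were higher in primary spermatocytes than in spermatogonia in 3 of 3 mice, Rfx4, Gtf2a1l, Rfx2, Crem and Tbpl1 in 2 of 3, and Sox30 and Fhl5 in 1 of 3.

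Fhl5 was the member with the steepest course afterwards. Fhl5 (chr4:25199908-25242876, minus strand) was at 1.46, 1.16, 2.59, 4.70, 2.76 and 14.4 RPKM in the primary spermatocytes of mice 178, 648, 544, 550, 613 and 614. Secondary spermatocytes had 22.4, 5.64, 4.17, 56.9 and 48.8 RPKM in mice 178, 648, 286, 544 and 550, and spermatids had 85.3, 78.2, 9.21, 10.8 and 138 RPKM in mice 178, 351, 648, 286 and 544. The 2 low spermatid values belong to mice 648 and 286, the libraries with almost no Prm1. From primary to secondary spermatocytes Fhl5 was higher in 4 of 4 mice, by 2.18 to 4.41 log2 units, and from secondary spermatocytes to spermatids in 4 of 4, by 0.70 to 1.92. Somatic markers were also higher in secondary than in primary spermatocytes, with medians of 267 against 38.9 RPKM for the Sertoli list, 26.04 against 5.58 RPKM for the stromal, 40.3 against 6.50 RPKM for the Leydig and 9.09 against 2.24 RPKM for the macrophage list, in which 3 of 6 genes were called higher. Their part in the difference of Fhl5 was not tested.

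Over the groups, the first of these steps was 2.63 for Fhl5 (limma, adjusted p = 0.236), and no member was called (0 of 9, 1 at an unadjusted p under 0.05, background 2.81% of genes called higher). With mouse as a random block it was 3.03 and called (adjusted p = 0.0278), with 14.5% of genes called higher. Over all genes this step gave 639 calls higher and 34 lower, and 256 and 178 after quantile normalization. For spermatids minus secondary spermatocytes, 0 of 9 members were called by limma, with 0 at an unadjusted p under 0.05, and 0.128% of all genes were called in either direction. The differences there were 1.28 for Fhl5, 0.62 for Crem and -0.98 for Mybl1.

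Spermatids were therefore also set against primary spermatocytes directly, a comparison added after the values had been seen. Fhl5 was 3.91 ± 1.24 (SE) higher (limma, adjusted p = 0.0277) and Mybl1 fell by 1.54 on the log2 scale (adjusted p = 0.0494), while 13.4% of all genes were called higher and 12.7% lower. In the 3 mice with both stages, 178, 648 and 544, Fhl5 was higher by 2.88 to 5.77 and Mybl1 differed by -2.77 to -0.57. Mybl1 was at 34.8, 22.4 and 19.3 RPKM in the spermatids of mice 178, 351 and 544 and at 140.4 and 96.1 RPKM in those of mice 648 and 286. The latter pair also held the most RNA of 6 primary spermatocyte markers, at a summed 968 and 599 RPKM against 56.6 to 157 RPKM in the other 3, and 3 of these 6 markers were called lower in spermatids (median -2.61). Their part in the difference of Mybl1 was not tested. Its highest stage was primary spermatocytes in all 3 mice sorted into 4 stages. The Fhl5 call was lost without mouse 178 (adjusted p = 0.179), 351, 544 or 648, and the difference ran from 2.86 to 4.83 over the omission of each mouse in turn. The Mybl1 call was lost without mouse 178, 351, 544, 550 or 614, and the difference was -0.90 without mouse 544.

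Crem (chr18:3266048-3337748, minus strand) was present from the first stage on, and within each mouse it was higher at each stage after primary spermatocytes. Its sums were 232, 138, 267 and 1541 RPKM in the spermatogonia of mice 178, 648, 286 and 544, and 884, 1695, 668, 881, 51.9 and 695 RPKM in the primary spermatocytes of mice 178, 648, 544, 550, 613 and 614. They were 979, 2372, 1309, 1374 and 1172 RPKM in the secondary spermatocytes of mice 178, 648, 286, 544 and 550, and 1908, 1896, 2928, 2668 and 1647 RPKM in the spermatids of mice 178, 351, 648, 286 and 544. Unlike Fhl5, Crem was highest in the spermatids of mice 648 and 286. From primary to secondary spermatocytes it was higher in 4 of 4 mice by 0.15 to 1.04, and from there to spermatids in 4 of 4 by 0.26 to 1.03. Spermatids minus primary spermatocytes came to 1.65 (adjusted p = 0.0875), and to 1.57 with the mouse as a random block (adjusted p = 0.0470), where 18.9% of genes were called higher and 19.3% lower and 3 members were called in all.

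**Figure D2:**
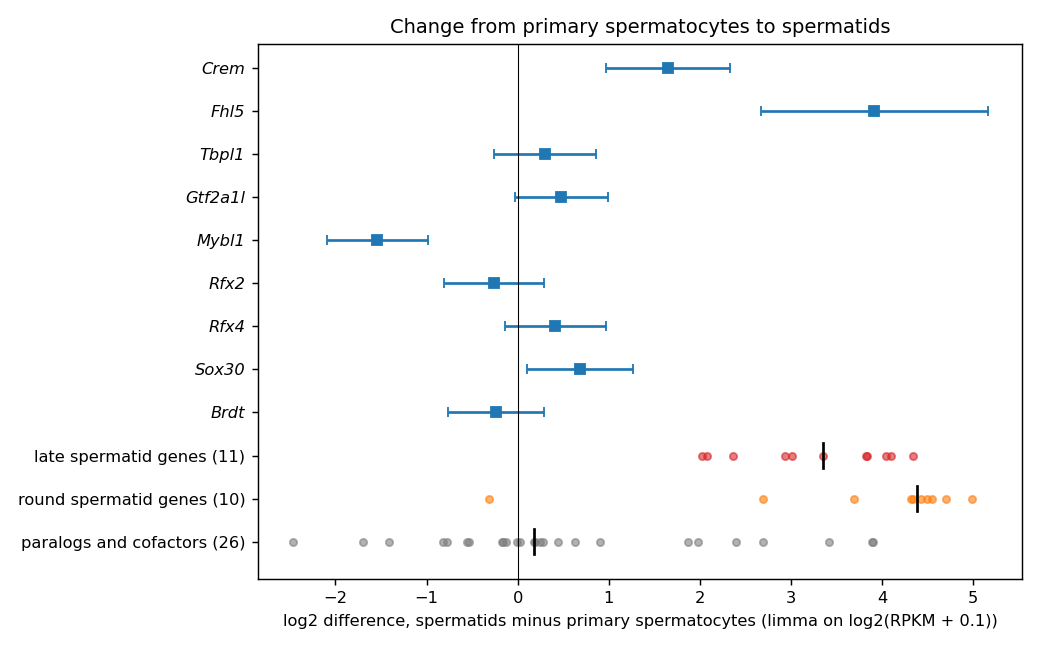
Difference of spermatids minus primary spermatocytes in log2(RPKM + 0.1) from limma, as squares with SE bars for each member and as 1 point per gene for 11 late spermatid genes, 10 round spermatid genes and 26 relatives and cofactors, with a black line at each list's median. Fhl5 sits at 3.91, Crem at 1.65 and Mybl1 at -1.54, the other 6 members lie nearer to 0, and the 3 lists have medians of 3.36, 4.38 and 0.18.

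The remaining members had levels in spermatids that overlapped those in spermatocytes. Sox30 (chr11:45980310-46017994, plus strand) was at 18.1 to 47.3 RPKM in primary spermatocytes, 18.1 to 52.3 in secondary spermatocytes and 37.2 to 77.3 in spermatids, and was higher in spermatids than in primary spermatocytes in 3 of 3 mice, by 0.29 to 1.04. Rfx4 was at 103, 119, 103, 103 and 155 RPKM in the spermatids of mice 178, 351, 648, 286 and 544. Those 5 values overlap with the 113 to 116 RPKM of the 4 higher primary spermatocyte libraries. Gtf2a1l ran from 83.1 to 199.7 RPKM in spermatids, Rfx2 from 96.6 to 445 RPKM, Tbpl1 from 74.8 to 629.8 RPKM and Brdt from 206 to 1207 RPKM. In Tbpl1, Brdt, Rfx2 and Mybl1 the highest spermatid value was that of mouse 648, at 629.8, 1207, 445 and 140.4 RPKM, and among spermatids Prm1 was lowest in the same library. The sum of the primary spermatocyte markers was also highest there among spermatids, at 968 RPKM, and their part in these levels was not tested.

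Levels of different genes can be compared per length on 1 leading transcript each, since summing transcripts counts reads of shared exons repeatedly. In spermatids the median RPKM of the leading transcript was 218 for Brdt, 97.5 for Crem, 85.9 for Rfx2, 81.3 for Gtf2a1l, 62.4 for Tbpl1, 51.3 for Sox30, 40.2 for Fhl5, 21.8 for Rfx4 and 11.6 for Mybl1. The ranges of all neighbours in this order overlapped, so the order is of medians only. In primary spermatocytes Fhl5 was last at 1.87 RPKM and Brdt first at 230 RPKM, and Mybl1 was at 42.1 RPKM.

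The step from primary spermatocytes to spermatids was next compared with that of late spermatid genes, the protamines and transition proteins that package sperm DNA and the genes of the flagellum and sheath. Of 12 such genes 11 were found. Among them 4 of 11 were called higher in spermatids (limma): Prm3 at 4.34, Smcp, of the mitochondrial capsule, at 4.09, Akap4, of the fibrous sheath, at 4.05 and Odf1, of the outer dense fibres, at 3.83. The median of the 11 was 3.36, the median of the 9 members 0.41 and that of all genes -0.13. Of 10 round spermatid genes, mostly of the acrosome, 8 were called higher, with a median of 4.38.

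Within mice, the late mean was higher in spermatids than in primary spermatocytes by 5.48, 5.08 and 2.56 log2 units in mice 178, 544 and 648. Fhl5 exceeded that mean in 3 of 3 mice, by 0.29 to 0.60, and the 8 other members stayed below it in 3 of 3. Crem minus the late mean was -4.37 to -1.77 and Mybl1 minus the late mean -7.85 to -3.12. In limma, Fhl5 was 0.65 above the late genes, and the others were below them, at -4.81 for Mybl1, -3.53 for Rfx2, -3.50 for Brdt, -2.97 for Tbpl1, -2.85 for Rfx4, -2.78 for Gtf2a1l, -2.58 for Sox30 and -1.61 for Crem. None of these was called (0 of 9, 1 at an unadjusted p under 0.05, and 0% of all genes). Without mouse 286 5 members were called lower, as were 69.0% of all genes. Without mouse 544 Crem stood at 0.31, and in wildtype mice alone Fhl5 stood at -0.18. With the mouse as a random block 8 of 9 were called lower, all but Fhl5 (0.54, adjusted p = 0.602). Since 87.9% of all genes were called lower there too, the count shows the members as near to the background.

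**Figure D3:**
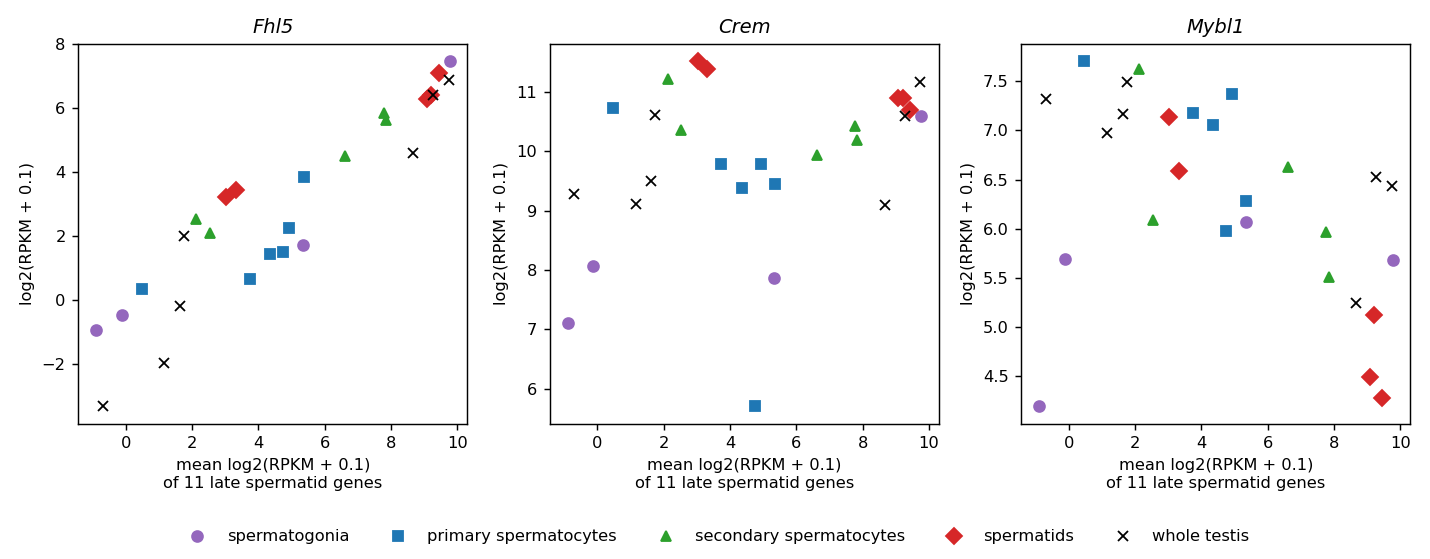
Levels of Fhl5, Crem and Mybl1 in log2(RPKM + 0.1) against the mean of 11 late spermatid genes on the same scale, with 1 point per sorted library (20 libraries of 8 mice, coloured by stage) or whole testis (7 mice, crosses). Fhl5 climbs with the late genes, Crem is highest in the spermatids of mice 648 and 286 at late means of 3.03 and 3.31, and Mybl1 is low in the 3 spermatid libraries with a late mean of 9.07 or more.

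In the whole testes Fhl5 again followed the split of the protamines. It was at 24.2, 85.6 and 118 RPKM in mice 178, 214 and 273, whose Prm1 was at 603 RPKM or more, and at 3.93, 0.156 and 0.782 RPKM in mice 648, 269 and 286 and listed at 0 in mouse 308, whose Prm1 was at 1.16 RPKM or less. The other members were present in all 7 testes. Crem was at 548 to 2299 RPKM, with 1559 RPKM in mouse 648 and 619 RPKM in mouse 308. Mybl1 was at 37.7, 92.2 and 86.1 RPKM in mice 178, 214 and 273 and at 179, 125, 144 and 159 RPKM in mice 648, 269, 286 and 308. In the same order of mice, the primary spermatocyte markers summed to 261, 652 and 657 RPKM against 2664, 989, 1005 and 2391 RPKM. The Sertoli markers summed to 344, 629 and 661 RPKM against 790.5, 1199, 822 and 1956 RPKM. The part of both lists in the Mybl1 levels was not tested. Rfx2 was at 123 to 278 RPKM, Rfx4 at 63.2 to 152 RPKM, Sox30 at 24.5 to 64.1 RPKM, Gtf2a1l at 49.6 to 216 RPKM and Tbpl1 at 57.7 to 388 RPKM. These sets are not groups of the study, and no test was made between them.

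Rfx4 held a change that its sum did not show. Rfx4-204 and Rfx4-206 are short transcripts of 4 exons at chr10:84762238-84814670 that share exons with the 5′ part of the gene, upstream of the start of Rfx4-203. They were singled out after their values were seen. Their mean was 2.001, 1.61, 1.24, 1.83, 0.258 and 4.20 RPKM in the primary spermatocytes of mice 178, 648, 544, 550, 613 and 614, and 19.3, 27.9, 15.8, 13.9 and 24.5 RPKM in the spermatids of mice 178, 351, 648, 286 and 544. All spermatid libraries lay above all primary spermatocyte libraries, those of mice 648 and 286 included. Secondary spermatocytes had 4.13 to 16.2 RPKM, overlapping both. In spermatogonia they were listed at 0 in mouse 648 and stood at 0.634, 1.10 and 16.3 RPKM in mice 178, 286 and 544.

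Over spermatids minus primary spermatocytes Rfx4-204 was 3.49 ± 0.72 (limma, adjusted p = 0.0040) and Rfx4-206 3.79 ± 0.88 (adjusted p = 0.0076), among 63775 transcripts of which 9.62% were called higher. Rfx4-203, which starts downstream of them, differed by -0.36 (adjusted p = 0.711). The mean of the transcripts with later starts, Rfx4-201, Rfx4-203 and Rfx4-205, was 27.9, 26.5, 26.9, 27.0, 7.33 and 14.0 RPKM in the 6 primary spermatocyte libraries and 15.6, 15.2, 16.9, 18.2 and 25.3 RPKM in the spermatids. In mouse 613, where the mean was 7.33, Rfx4-203 stood at 21.1 RPKM and Rfx4-205 was listed at 0. The ratio of the upstream to the downstream mean had a median of 0.0641 (0.0351 to 0.300) at the primary spermatocyte stage, 0.554 (0.201 to 0.895) at the secondary and 0.968 (0.762 to 1.84) among spermatids. The call of Rfx4-204 was lost without mouse 178 (adjusted p = 0.0670) and that of Rfx4-206 without mouse 178, 544 or 648 (up to 0.105). Reads of exons shared with the long Rfx4-202 cannot be assigned to 1 transcript with certainty.

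**Figure D4:**
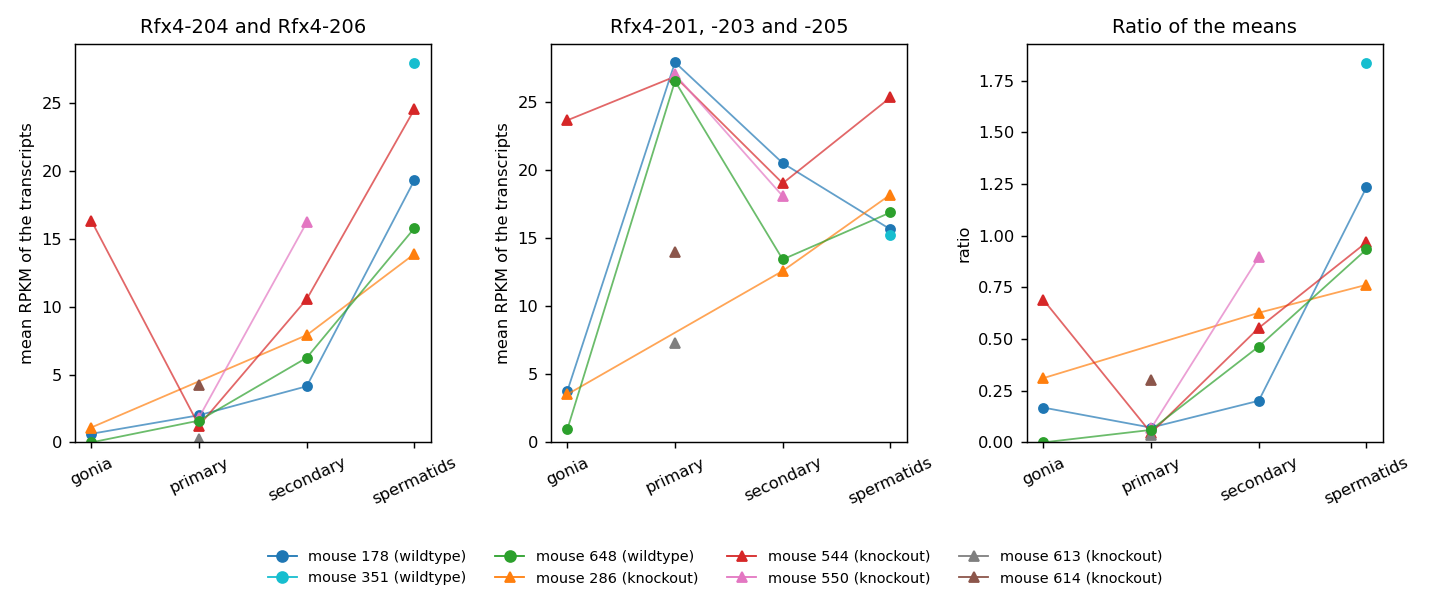
Mean RPKM of the upstream transcripts Rfx4-204 and Rfx4-206, of the downstream transcripts Rfx4-201, Rfx4-203 and Rfx4-205, and the ratio of these means, in the 20 sorted libraries by stage, with circles for wildtype and triangles for knockout mice and lines joining the libraries of a mouse. The upstream mean goes from 0.258 to 4.20 RPKM in primary spermatocytes to 13.9 to 27.9 RPKM in spermatids, while the downstream mean is at 7.33 to 27.9 RPKM and 15.2 to 25.3 RPKM.

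Crem had 39 transcripts in the table, in 6 clusters of start sites with 11, 6, 5, 4, 6 and 7 transcripts in the order of transcription, and several of them share most of their exons. The cluster nearest the 3′ end of the gene, at chr18:3281078-3281769, holds 7 short transcripts, and short forms of Crem that begin inside the gene are known to act as repressors (ICER). All 39 transcripts had a positive difference at each of the 3 steps. Between spermatogonia and primary spermatocytes 1 of 39 was called, Crem-224 at 1.59 (limma, adjusted p = 0.0436, 1 at an unadjusted p under 0.05), and 4.57% of all transcripts were called higher. That call was lost without any of mice 178, 286, 351, 550, 614 and 648. At the 2 later steps 0 of 39 were called, and 0 had an unadjusted p under 0.05. For spermatids minus primary spermatocytes the differences ran from 1.17 to 2.32 with a median of 1.90, and none was called (0 of 39 by limma, 14 at an unadjusted p under 0.05, smallest adjusted p = 0.0793). With the mouse as a random block 9 of 39 were called there, against 15.2% of all transcripts.

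No start cluster of Crem stood out from the others in that comparison, as the 6 ranges overlapped throughout. Reads of exons shared between clusters count for the transcripts of each, so this overlap cannot show that the starts behave alike. The cluster farthest upstream had differences of 1.38 to 2.16 and the one nearest the 3′ end 1.35 to 2.29. The mean RPKM of the 7 transcripts of that last cluster over the mean of the 6 transcripts that end before it had a median of 0.952 in spermatogonia and 0.990 in primary spermatocytes. It was 1.36 for both later stages and 1.23 for whole testes. The ratio ran from 0.774 to 2.02 in primary spermatocytes and 0.629 to 2.35 in spermatids. In mouse 613 the sum of Crem was 51.9 RPKM and its leading transcript was listed at 0. That library was taken as quantified apart, so its sums may not be on the scale of the others. Without that mouse 37 of the 39 transcripts were called between spermatogonia and primary spermatocytes and 15 between primary spermatocytes and spermatids. Of all transcripts 12.4% and 12.7% were called higher in these fits.

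**Figure D5:**
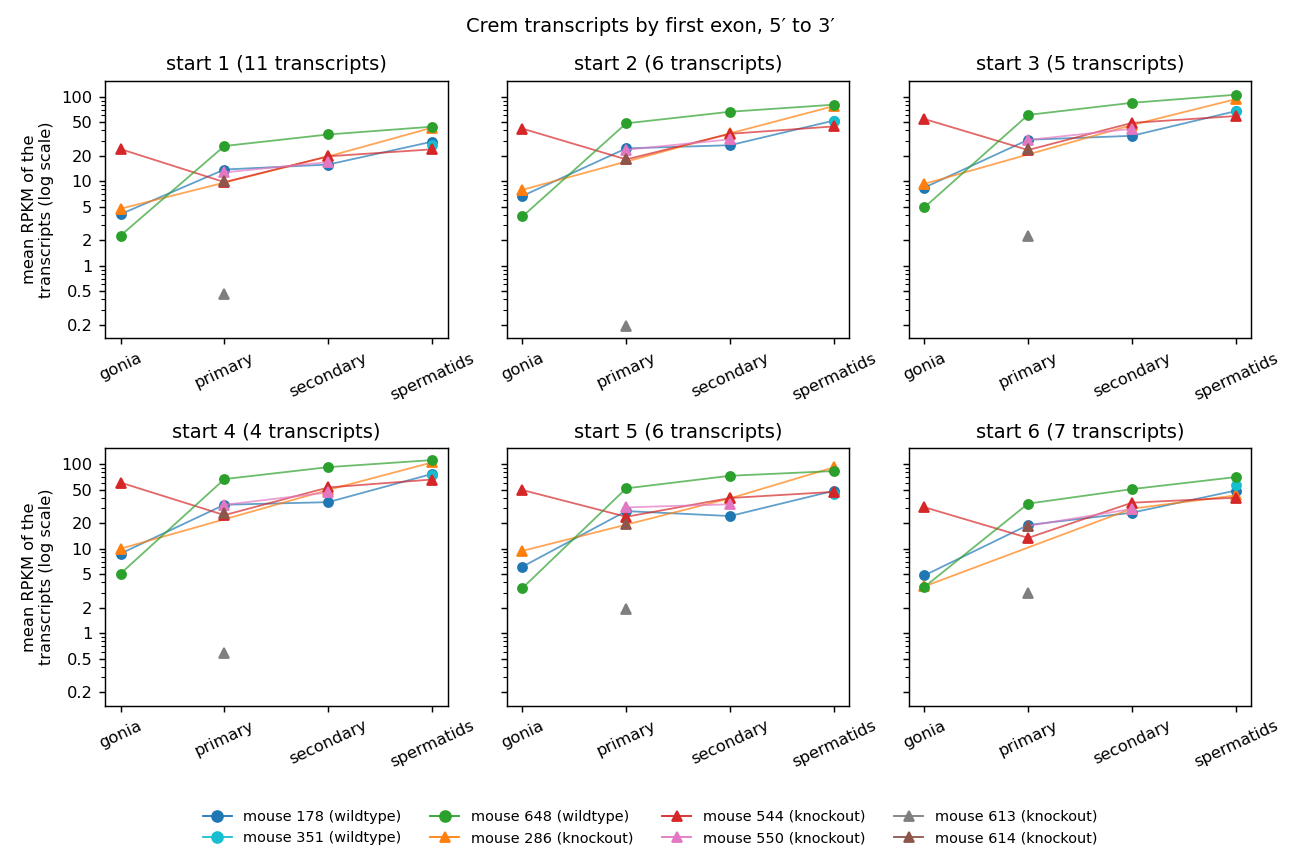
Mean RPKM (log axis) of the Crem transcripts of each of 6 start clusters, numbered from the 5′ end, in the 20 sorted libraries by stage, with circles for wildtype and triangles for knockout mice and lines joining the libraries of a mouse. The primary spermatocyte library of mouse 613 lies under all others in each panel, and the clusters share their course, with differences of spermatids minus primary spermatocytes between 1.17 and 2.32 log2 units over the 39 transcripts.

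Relatives and partners of the members were read from a list of 27 genes of the same families and complexes, of which 26 were tested. Between spermatogonia and primary spermatocytes 4 were called higher and 9 lower (limma), against 7.53% and 19.1% of all genes. At this step 6 of 6 stromal markers, 5 of 6 macrophage markers and 3 of 5 tested Sertoli markers were also called lower, and their part in the lower relatives was not tested. The higher ones were Fhl4, a testis LIM protein, at 2.38, the zinc finger factor Ovol1 at 1.82, Tcfl5 at 1.55 and the general factor Gtf2b at 1.38. Among the lower ones were the TFIID subunits Taf7l at -4.21 and Taf4b at -2.69, the LIM proteins Fhl1 at -3.78 and Fhl2 at -2.56, the MYB relatives Mybl2 at -2.21 and Myb at -1.87, and Crebbp, a CREB coactivator, at -1.79. Rfx3 was lower as well, at -1.50. From primary to secondary spermatocytes 1 of 26 was called, Rfx1 at 2.40, where 2.81% of all genes were called higher.

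In spermatids against primary spermatocytes 6 of the 26 were called higher and 2 lower, with a median of 0.18, where 13.4% of all genes were called higher and 12.7% lower. The kinesin Kif17, which is known to carry Fhl5 out of the nucleus, was higher by 3.90, Sox5 by 3.88, Rfx1 by 3.42, Rfx3 by 2.70, Mybl2 by 2.40 and Taf7l by 1.98. Of the lower ones, the TFIID subunit Taf7 fell by 1.69 on the log2 scale. Thus the sign of Rfx3, Mybl2 and Taf7l at this comparison was opposite to that between spermatogonia and primary spermatocytes. Both comparisons use the same primary spermatocyte libraries, with opposite sign, so the 2 signs are not independent of each other.

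The genes nearest to each member in profile were taken as the 3 with the highest Pearson correlation of log2(RPKM + 0.1) over the 20 sorted libraries, out of all genes tested. The libraries share mice and stages, so these are descriptions. For Fhl5 they were Asb15 (0.987), Hmgb4 (0.985), an HMG-box protein of the testis, and Sh3d21 (0.982). Gtf2a1l ran with Ccdc42 (0.991), Slc2a5 (0.982) and the sperm calcium channel subunit Catsper2 (0.982). Rfx4 ran with Pfn4 (0.968), a testis profilin, Odf4 (0.965) and Glb1l (0.964), and Rfx2 with the axonemal dynein gene Dnaic1 (0.965), Cenpn (0.964) and Stkld1 (0.963). For Crem they were Cdkl3 (0.974), Nrd1 (0.967) and 4921518K17Rik (0.963), the last at only 0 to 1.75 RPKM in the sorted libraries. For Tbpl1 they were Cenpu (0.977), Cstf1 (0.972) and Slc9c1 (0.970), the sperm sodium-proton exchanger. Mybl1 was nearest to the histone demethylase gene Kdm3a (0.960), Nmbr (0.952) and Prok2 (0.951). Brdt, with Lyrm1 (0.921), Pex13 (0.920) and Kansl1l (0.919), and Sox30, with Rsph14 (0.903), Cpeb2 (0.901) and Pmel (0.891), had the loosest neighbours. None of the 9 members was among the nearest 3 of another.

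Knockout and wildtype were compared over the 4 sorted stages and in whole testis. No member was called in either (0 of 9 by limma, 0 at an unadjusted p under 0.05), where 0.00881% and 0% of all genes were called. Over the sorted stages Fhl5 was 1.46 ± 0.91 (SE) higher in knockouts and Tbpl1 differed by -0.79. This fit has no term for the mouse, so libraries of the same mouse count as replicates. With the mouse as a random block Fhl5 was 1.54 ± 1.10 higher (limma, adjusted p = 0.996), and 0 of 9 members were called. The fits that leave out a mouse lack that term too. Without mouse 286, knockout spermatogonia and spermatids came from mouse 544 alone, so a call there does not rest on replicate mice. The sign of Fhl5 turned without mouse 544 (-0.081), and without mouse 286 the difference was 3.21 and called (adjusted p = 0.0175), as were 4.33% of all genes in that direction. In whole testis the difference of knockout minus wildtype was -1.74 for Fhl5 and 0.74 for Gtf2a1l. There the knockouts comprised mice 214 and 273, with abundant late spermatid messages, and mice 269, 286 and 308, with few, and the wildtypes 1 mouse of each kind.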

How the data were processed

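RNA-seq was analysed for 28 libraries of 13 mice, grouped by genotype and stage from the sample labels. Reads were paired-end. The authors used TopHat2 and Ensembl transcripts, and deposited RPKM values for 94480 transcripts. The paper also names PEER, quantile normalization and PoissonSeq. In 27 libraries 93.3 to 94.6% of low values fell within 0.06 of a whole read (12% by chance), so the deposited RPKM carries neither adjustment. This gave depths of 23786000 to 61633000 mapped reads. In mouse 613 14.1% did. The libraries fall into 4 sets that each share their missing transcripts (865, 1411, 2828 and 12787), taken as quantified together.

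Transcripts were assigned with GENCODE M21 (GRCm38), which matched 90339 identifiers (95.6%), and summed per gene, a missing value counting as 0. No count model was fitted, since the values are RPKM. limma 3.58.1 (R 4.3.3) was run on log2(RPKM + 0.1) with 8 groups of genotype by stage, a trend in eBayes, a minimum mean of 0.1 RPKM and Benjamini-Hochberg adjustment over all features (threshold 0.05). This left 22700 genes and 63775 transcripts in sorted cells and 22747 genes in whole testis. A pseudocount understates changes of low genes. On simulated data for spermatids minus secondary spermatocytes (22700 genes) 87% of changes of 1.5 and 100% of changes of 3 log2 units were recovered. The simulation gave every gene the same noise and no link between libraries of a mouse. It checks that the fit runs and does not give the power for the members. Their SE at this step ran from 0.53 for Gtf2a1l to 1.28 for Fhl5.

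Libraries of the same mouse are paired by the labels. Their residuals correlated with a median of 0.45 (22 pairs, -0.11 to 0.67), against -0.05 for different mice (151 pairs), and the random block took a correlation of 0.400 for genes and 0.516 for transcripts. The members, gene lists and alternatives were chosen with earlier results of these data known. Named genes are all members, list genes that a sentence turns on, and the 3 nearest genes of each member. A gene of the list of relatives is counted but not reported here by name. Python 3.11.15, pandas 2.3.3, numpy 2.4.6 and matplotlib 3.10.9 made tables and figures. Alternatives were other pseudocounts (0.01 and 1), filters (none, and a mean of 1 RPKM), quantile normalization, the leading transcript, wildtype mice only, a term for the sets of libraries, the mouse as a random or fixed block, and leaving out libraries or mice.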

Additional observations from a re-analysis of the deposited data

Results flagged for a closer look

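Of the 18 groups of a member with 4 to 10 libraries, 2 held a value far from the others by Dixon's test, which flags about 1 in 20 groups by chance. Sox30 was at 18.1 RPKM in the knockout primary spermatocytes of mouse 614, where the 3 other libraries had 36.1 to 37.6 RPKM. Brdt was at 952 RPKM in the knockout whole testis of mouse 308, where the 4 others had 329 to 486 RPKM.

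The single wildtype ovary entered no comparison, and it carried reads of all 9 members. Crem was at 138 RPKM there, Tbpl1 at 33.6 RPKM, Rfx2 at 7.54 RPKM and Mybl1 at 6.06 RPKM. Fhl5 stood at 2.53 RPKM, Brdt at 2.33 RPKM, Gtf2a1l at 0.975 RPKM, Rfx4 at 0.454 RPKM and Sox30 at 0.215 RPKM. Each leading transcript had an estimated 8.97 to 716 reads in it, above the limit of 3 that a count of 0 allows. The mean of the 3′ transcripts of Crem over that of its 5′ transcripts was 4.01 in the ovary. There is no replicate of it.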

How the results depend on the processing

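The number of members called between spermatogonia and primary spermatocytes was 4, and 0 to 5 with 1 mouse left out. With mouse as a random or fixed block the members called between primary and secondary spermatocytes went from 0 to 1, and those lower relative to late genes from 0 to 8. With 1 mouse left out they were 0 to 1 and 0 to 5, and the knockout difference over sorted stages gave 0 to 1. For spermatids minus primary spermatocytes 2 members were called, and 1 with a pseudocount of 0.01 or 1, no filter, the leading transcript, wildtype mice only or without the 544 spermatogonia library (0 to 2 with 1 mouse left out). Of the Crem transcripts, 1 was called between spermatogonia and primary spermatocytes, but 0 at a mean of 1 RPKM, 3 after quantile normalization, 2 and 11 with the random and fixed block, 38 in wildtype mice, 5 without the 544 spermatogonia library, 39 without it and mouse 613, and 0 to 37 with 1 mouse left out. For spermatids minus primary spermatocytes the Crem count was 0, but 8 after quantile normalization, 9 and 2 with the blocks, 3 and 34 without those libraries, and 0 to 15 with 1 mouse left out. The sign of Fhl5 between spermatogonia and primary spermatocytes turned to 0.10 in wildtype mice, 1.42 without the 544 spermatogonia library and 1.54 without it and mouse 613 (-2.55 to 1.56 with 1 mouse left out). Relative to late genes Fhl5 turned to -0.18 in wildtype mice and Crem ranged from -3.32 to 0.31 with 1 mouse left out. Fhl5 in knockouts turned to -0.29 with a term for the sets of libraries and ranged from -0.081 to 3.21. The cause was not tested. Of the other values 588 kept their side and direction, 37 lost and 35 gained a call. The limits are few mice per group, libraries in 4 sets by their missing transcripts, and ages not given per library.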
